A study of Mus musculus with 7 samples.

Results

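Chemokines and their receptors were followed across 7 mouse tissues as 55 genes, 39 chemokine ligands and 16 chemokine receptors, chosen by gene symbol alone from the 50354 gene names of the table. Ligands were the names of the Ccl and Cxcl series together with Cx3cl1 and Xcl1, and receptors were those of the Ccr and Cxcr series. To profile metabolically active tissues, RNA-Seq was performed on 3 fat depots, namely visceral (VAT), subcutaneous (SCAT) and interscapular brown (BAT) adipose tissue, and on liver, kidney, cortex and skeletal muscle. All 7 libraries came from wild-type C57BL/6 mice (C57BL/6N in the paper's text) of 36 weeks on the diet labelled NCD, and no group carried a transgene, a deletion or a treatment. Each tissue has 1 library, so no difference between tissues has a replicate check, no p-value is given, and every comparison is one between libraries.

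Chemokines are small secreted proteins that direct the movement of leukocytes. They act through G protein-coupled receptors, and their gradients are held on glycosaminoglycans of endothelium and matrix. Homeostatic chemokines such as CXCL13, CCL19 and CCL21 organise B and T cell zones of lymphoid tissue, whereas inflammatory chemokines such as CCL2 and CCL5 recruit monocytes and effector T cells. In adipose tissue the family is best known for the recruitment of macrophages.

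The unit of all levels is FPKM, fragment numbers scaled to transcript length and library size, so that levels can be compared between genes of different length. Fragment counts are not part of the table, and the depth behind each value is unknown. Enrichment in a tissue meant a level of 1 FPKM or more there together with a log2(FPKM + 0.1) that exceeded every other tissue by 2 or more, which is 4-fold. The tissue labels were met by most defining markers. Umod (930 FPKM) was far highest in kidney, Snap25 (215) in cortex, Ucp1 (6552) in BAT, Ckm (8592) in muscle and Apoa1 (2521) in liver. Dio2, a further marker of brown fat, was low in BAT at 0.387 FPKM, and the liver value of Alb is missing. For muscle, the value of Myh4 is missing and Acta1 has no locus, so the label rests on Ckm among these markers. Adipoq stood at 330 FPKM in VAT, 258 in BAT and 110 in SCAT. The adipose libraries also held transcripts of other tissues. VAT had a summed 2924 FPKM of 5 epididymal genes and 253 FPKM of Alb, and BAT had 166 FPKM of Ckm. SCAT had 129 FPKM of 6 pancreatic acinar genes, which all met the enrichment rule there. Scaling the libraries by the median of ratios divides each level by a library factor, which would shift log2 levels by between -0.39 in muscle and 0.52 in SCAT, and by 0.42 in VAT.

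Promoter sequence was available for 39 of the 55 members in the RefSeq table of GRCm38.p6, which covers 250 bases before and 50 bases from the start of transcription. Windows are shown for some of the members that hold a searched motif, chosen after the matches were seen. Cxcl1, Cxcl2 and Cxcl3 share a match and were not all highest in the same tissue, Cxcl10 holds 2 of the motifs, and Ccl17 and Ccr6 were enriched in SCAT. Capitals mark the matches, and positions are counted from the start site.

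Cxcl1, chr5:90891135-90891214, plus strand: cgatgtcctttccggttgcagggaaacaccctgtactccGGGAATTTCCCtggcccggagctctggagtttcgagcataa

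Cxcl2, chr5:90903789-90903868, plus strand: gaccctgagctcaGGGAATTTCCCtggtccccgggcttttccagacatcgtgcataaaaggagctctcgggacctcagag

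Cxcl3, chr5:90785991-90786070, plus strand: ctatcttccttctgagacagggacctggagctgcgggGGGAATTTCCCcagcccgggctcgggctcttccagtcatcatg

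Cxcl10, chr5:92348980-92349109, minus strand: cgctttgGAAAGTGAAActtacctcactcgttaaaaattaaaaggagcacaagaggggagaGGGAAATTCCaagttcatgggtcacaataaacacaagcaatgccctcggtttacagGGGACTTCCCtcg

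Ccl17, chr8:94810323-94810392, plus strand: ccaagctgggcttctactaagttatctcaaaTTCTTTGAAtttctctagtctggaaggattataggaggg

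Ccr6, chr17:8235873-8235942, plus strand: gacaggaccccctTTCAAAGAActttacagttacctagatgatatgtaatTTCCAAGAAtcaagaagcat

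Ccr6, start further downstream, chr17:8242416-8242475, plus strand: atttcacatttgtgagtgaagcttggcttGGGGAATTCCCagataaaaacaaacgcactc

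The capitals in Cxcl1, Cxcl2 and Cxcl3 mark the NF-kB consensus, which overlaps itself on both strands there and begins at positions -71, -97 and -73. In Cxcl10 they mark the interferon response element, GAAA and GAAA with any 2 bases between them, followed by 2 matches to the NF-kB consensus. In Ccl17 and at the upstream Ccr6 start they mark GAS, TTCNNNGAA, and at the downstream Ccr6 start the NF-kB consensus. Of 46 promoters of members, 9 (19.6%) held the NF-kB consensus on either strand, against 4.51% of all 32851 promoters. The interferon response element was in 3 of them (6.52%, against 3.44%), GAS in 3 (6.52%, against 8.3%) and the TATA box TATAAA in 11 (23.9%, against 13.6%). Among the 14 enriched members, 9 had a promoter in the table, and Ccr6 was the member of these with the NF-kB consensus. The NF-kB consensus was also in Ccl9, Ccl20, Ccl27a and Ccr3, the interferon response element in Ccl19 and Cxcl14, and GAS in Cxcl14, whose windows are not shown. These matches are descriptions of the letters in the windows.

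Of the 55 members, 37 (67.3%) reached 1 FPKM in any tissue, beside 69.8% of 21407 protein-coding genes. These were 25 ligands and 12 receptors. SCAT held the most, with 30 members at 1 FPKM or more (54.5%, beside 49.9% of coding genes), followed by BAT with 25 (45.5%, beside 50.2%) and VAT with 22 (40%, beside 52.1%). Cortex held the fewest, with 8 (14.5%, beside 52.4%). Liver and kidney had 15 each (27.3%, beside 49.4% and 51.7%) and muscle 17 (30.9%, beside 50.8%). A further 15 members were above 0 but below 1 FPKM everywhere. Ccl21b, Ccl21c and Ccl26 were listed at 0 in every library.

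Among the 37 members at 1 FPKM or more, 14 (37.8%) were enriched in a tissue, beside 21.4% of 14936 coding genes that reached 1 FPKM. SCAT had 10 of them (27% of the 37, beside 1.94% of coding genes): the ligands Ccl5, Ccl17, Ccl22 and Cxcl13 and the receptors Ccr4, Ccr6, Ccr7, Cxcr2, Cxcr3 and Cxcr4. BAT had 3, Ccl2, Ccl7 and Ccr10 (8.11%, beside 0.757%), and kidney had Ccl28 (2.7%, beside 2.48%). The SCAT count was 4 with a pseudocount of 1 (beside 0.951% of coding genes), 3 with a minimum of 5 FPKM (beside 1.62%) and 6 with an 8-fold rule, which left 0 in BAT (beside 0.897% and 0.261%). Liver, VAT, cortex and muscle had 0, beside 3.39%, 1.22%, 8.21% and 3.38%. Regardless of this threshold, SCAT was the highest tissue for 14 of the 37 (37.8%, beside 8.38% of coding genes), BAT for 7 (18.9%, beside 15.1%), VAT for 5 (13.5%, beside 5.36%) and liver for 4 (10.8%, beside 15.5%). Cortex was highest for 3 (8.11%, beside 21.1%) and kidney and muscle for 2 each (5.41%, beside 10.6% and 23.9%). Some members entered the 37 only through SCAT, which raises the SCAT shares. Without that library 28 members reached 1 FPKM, whereas the 14936 coding genes fell to 14616. Just under the threshold lay Cxcl12 in liver, with a log2 ratio of 1.98 over the next tissue, and just above it lay Cxcr3 in SCAT with 2.03. The median log2 ratio of the highest over the next tissue was 1.51 for the members, 1.21 for ligands and 2.15 for receptors, beside 0.68 for coding genes.

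**Figure D1:**
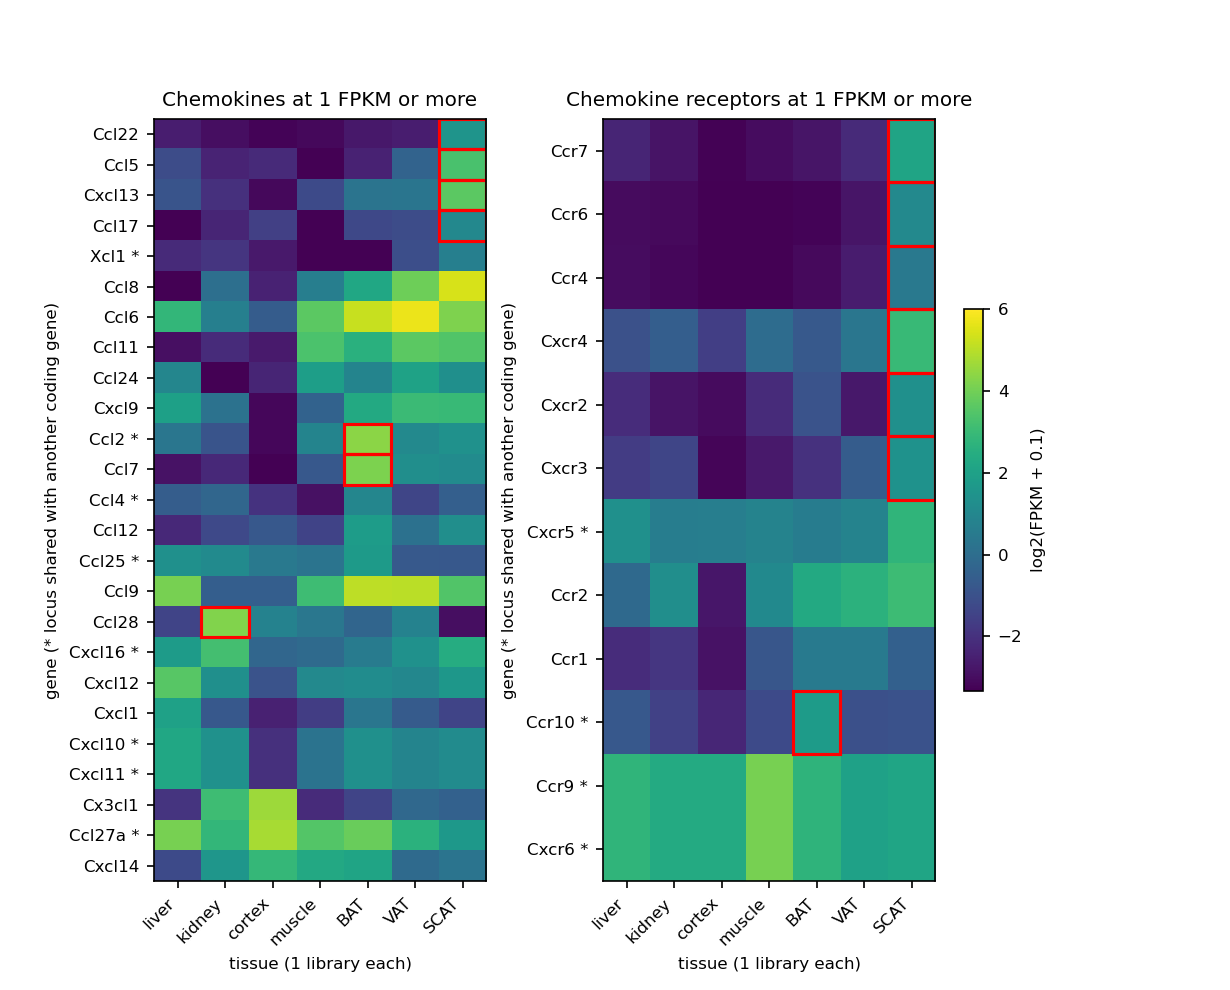
Level of the 25 ligands (left) and 12 receptors (right) at 1 FPKM or more, as log2(FPKM + 0.1), with 1 library per tissue. Red frames mark the 14 enriched members, 10 of them in the SCAT column, and asterisks mark the 12 members whose locus shares a name or its bounds with another coding gene.

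What a locus of the table holds limits how some members can be read. The locus of 17 members, 12 of which reached 1 FPKM, carried the name of another coding gene or overlapped one within its bounds, and their values cannot be assigned to the chemokine gene alone. Ccr9 and Cxcr6 shared 1 locus, as did Cxcl10 and Cxcl11. A second limit is the strand, which the table does not give. Read from the order of the loci, 16 members were represented by the locus on the strand opposite to their annotation, because it had the higher FPKM. All 12 enriched members with loci on both strands were highest in the same tissue at every locus, and 8 of them had a log2 ratio of at least 2 at every locus. With annotated-strand loci alone, 9 members were enriched instead of 14, and 5 instead of 10 in SCAT. Ccr4, Ccr6, Ccr7, Cxcr2 and Cxcr3 were the ones that no longer met the rule there, and their highest values on that strand stayed below 1 FPKM.

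Of the 12 receptors at 1 FPKM or more, 8 were highest in SCAT and 6 were enriched there, beside 8.38% and 1.94% of coding genes. The others were highest in muscle (2), VAT (1) and BAT (1), and 5 of the 6 did not meet the rule on the annotated strand. Ccr4, Ccr6, Ccr7, Cxcr2 and Cxcr3 reached 1 FPKM in SCAT alone, so they are among the 12 only through that library. CCR7, which brings naive T cells and mature dendritic cells into lymph nodes, had the largest log2 ratio of any member. Ccr7 (chr11:99141035-99161084, GRCm38) was at 4.30 FPKM in SCAT. It was at 0.118 in VAT, 0.0931 in liver, 0.0451 in BAT, 0.0389 in kidney, 0.024 in muscle and 0.00341 in cortex. SCAT thus stood 4.34 log2 units above VAT, the next tissue, and no other library came near it. On the annotated strand Ccr7 had 0.917 FPKM in SCAT and at most 0.0466 elsewhere.

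CCR6 is carried by B cells and by T cells of the Th17 type. Ccr6 (chr17:8235989-8258527) had 1.99 FPKM in SCAT, 0.0458 in VAT, 0.0213 in liver, 0.017 in kidney, 0.00642 in BAT, 0.00252 in cortex and 0 in muscle. CCR4, a receptor of Th2 and regulatory T cells, had low values outside the same library. Ccr4 (chr9:114489456-114504916) had 1.25 FPKM in SCAT, 0.0616 in VAT, 0.0246 in liver, 0.0184 in BAT and 0.0115 in kidney, and was listed at 0 in cortex and muscle. The log2 ratios over VAT were 3.84 for Ccr6 and 3.06 for Ccr4.

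CXCR4, the receptor of CXCL12 on most leukocytes and on progenitor cells, was more widely spread. Cxcr4 (chr1:128587484-128592308) had 7.64 FPKM in SCAT, 1.16 in VAT, 0.88 in muscle, 0.582 in kidney, 0.501 in BAT, 0.397 in liver and 0.235 in cortex. Its log2 ratio over the next tissue, VAT, was 2.62. On the annotated strand SCAT had 1.44 FPKM, and the ratio over the next tissue there, kidney, was 2.08. Cxcr4 was the single receptor among the 6 enriched in SCAT that met the rule on either strand.

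CXCR3 guides effector T cells and natural killer cells to interferon-induced ligands. Cxcr3 (chrX:101730874-101734380) had 2.58 FPKM in SCAT, 0.555 in VAT, 0.287 in kidney, 0.214 in liver, 0.152 in BAT, 0.0548 in muscle and 0.00856 in cortex. CXCR2 is a receptor of neutrophils. Cxcr2 (chr1:74153989-74161372) had 2.44 FPKM in SCAT, 0.425 in BAT, 0.13 in liver, 0.12 in muscle, 0.0526 in VAT, 0.0399 in kidney and 0.0206 in cortex. Cxcr2 was the member of the SCAT set for which BAT rather than VAT came next. The neutrophil genes beside it were at mixed levels: S100a8 was highest in VAT (10.2 FPKM, against 6.86 in SCAT), Camp was highest in SCAT (2.6), and Ly6g was listed at 0 in every library.

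CCR2, the receptor that draws inflammatory monocytes, was shared among the adipose tissues. Ccr2 had 8.34 FPKM in SCAT, 6.18 in VAT, 4.92 in BAT, 2.35 in kidney, 2.06 in muscle, 0.816 in liver and 0.0482 in cortex. It was the most abundant receptor with a locus of its own in 6 of the 7 tissues, cortex being the exception. CCR1, which binds several monocyte-attracting chemokines, was at 1.31 FPKM in VAT, 1.29 in BAT, 0.625 in SCAT, 0.47 in muscle, 0.181 in kidney, 0.129 in liver and 0.0383 in cortex.

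Receptors that stayed below 1 FPKM included Ccr3, Ccr8 and Cxcr1. Ccr3, the eotaxin receptor of eosinophils, ranged from 0.0161 in cortex to 0.473 in VAT. Ccr8, found on regulatory T cells, reached 0.633 in SCAT and at most 0.0172 elsewhere, and Cxcr1 reached at most 0.00786 FPKM.

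Values of the remaining 4 receptors came from shared loci. The locus of Cxcr5, the receptor that takes B cells into follicles, overlapped Bcl9l and had 6.81 FPKM in SCAT and 1.40 to 2.47 elsewhere. That of Ccr10, a receptor of skin and mucosal homing, overlapped Plekhh3, Cntnap1 and Ezh1 and had 3.37 FPKM in BAT and 0.099 to 0.497 elsewhere. The locus shared by Ccr9 and Cxcr6 also spanned Sacm1l, Lztfl1, Fyco1, Slc6a20a and Slc6a20b. It had 16.8 FPKM in muscle and 3.94 to 6.77 elsewhere. Summed over the 12 receptors with a locus of their own, the level was 30.4 FPKM in SCAT, 10.03 in VAT, 7.61 in BAT, 3.83 in muscle, 3.56 in kidney, 2.02 in liver and 0.397 in cortex.

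The homeostatic ligands were highest in different tissues. Of 7 CC ligands of this kind 3 reached 1 FPKM and 1 was enriched, and of 3 CXC ligands all reached 1 FPKM and 1 was enriched, beside 69.8% of coding genes at 1 FPKM and 21.4% of these enriched. CXCL13, made by follicular stroma to attract B cells, was the enriched ligand of SCAT with the highest level. Cxcl13 (chr5:95956929-95961196) had 12.3 FPKM in SCAT, 1.14 in VAT, 1.11 in BAT, 0.429 in liver, 0.332 in muscle, 0.145 in kidney and 0.0145 in cortex. On the opposite strand it had 9.94 FPKM in SCAT, and SCAT was highest there too.

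CCL19 and CCL21, the T zone ligands of CCR7, were near 0 in the library where Ccr7 was high. Ccl19 had 0.0458 FPKM in SCAT, 0.0775 in muscle and 0 elsewhere, and Ccl21a had 0.0274 in SCAT and 0 elsewhere. Both names also had a locus on an unplaced scaffold, at 0 in every library, and the chromosome 4 locus bounds of Ccl19 and Ccl21a overlap. The Ccl21a transcript of 870 bases and that of the annotated gene Gm21541, also of 870 bases, differ at 6 positions. Of the 100-base windows of Ccl21a, 50.3% occur letter for letter in Gm21541, and every such window of the Ccl21b transcript of 402 bases occurs in the transcripts of Gm10591, Gm13304 and Gm21541. How fragments shared by such copies were assigned is not given in the sources used here, so the levels of Ccl19 and the Ccl21 genes are uncertain.

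CXCL12, the ligand that retains leukocytes and progenitors, had its highest level outside fat. Cxcl12 had 11.9 FPKM in liver, 2.93 in SCAT, 2.40 in kidney, 2.21 in BAT, 2.01 in muscle, 1.92 in VAT and 0.427 in cortex. CXCL14, a homeostatic chemokine, was highest in cortex. Cxcl14 had 7.37 FPKM in cortex, 4.87 in muscle, 4.21 in BAT, 2.84 in kidney, 1.11 in SCAT, 0.825 in VAT and 0.327 in liver.

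CCL28, a chemokine of mucosal epithelia, was the enriched member of kidney. Ccl28 (chr13:119623819-119654354) had 18.9 FPKM in kidney, 1.68 in VAT, 1.64 in cortex, 1.18 in muscle, 0.714 in BAT, 0.278 in liver and 0.0276 in SCAT. Kidney was 3.42 log2 units above VAT, the next tissue, at this locus, which lies opposite to the annotated strand. On the annotated strand kidney had 1.41 FPKM and was 2.19 log2 units above cortex, the next tissue there. Ccl27a, a skin chemokine, lay in a shared locus and ranged from 3.04 FPKM in SCAT to 27.5 in cortex. Ccl25, of thymus and gut, overlapped Elavl1 and Cers4 and ranged from 0.487 FPKM in SCAT to 3.24 in BAT. Ccl27b did not exceed 0.0655 FPKM.

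Inflammatory CC ligands were mostly highest in BAT or SCAT. Of the 13 listed, 10 reached 1 FPKM, beside 69.8% of all coding genes. Of these 10, 5 were highest in BAT, 4 in SCAT and 1, Ccl6, in VAT, beside 15.1%, 8.38% and 5.36% of expressed coding genes. The enrichment rule was met by 3 in SCAT and 2 in BAT, beside 1.94% and 0.757% of these genes. Ccl5, Ccl17 and Ccl22 reached 1 FPKM in SCAT alone, and Ccl4 in BAT alone. CCL5, made by activated T and natural killer cells, was at 9.91 FPKM in SCAT, 0.679 in VAT, 0.346 in liver, 0.117 in cortex, 0.091 in kidney, 0.0844 in BAT and 0 in muscle. SCAT was 3.68 log2 units above VAT, at the locus chr11:83525173-83530536 on the annotated strand.

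CCL17 and CCL22 are products of dendritic cells and macrophages and bind CCR4. Ccl22 (chr8:94745590-94752481) had 2.74 FPKM in SCAT, 0.0682 in VAT, 0.0659 in liver, 0.05 in BAT, 0.0277 in kidney, 0.0148 in muscle and 0.00624 in cortex. Ccl17 (chr8:94810312-94812392), whose GAS match is shown above, had 1.92 FPKM in SCAT, 0.351 in VAT, 0.308 in BAT, 0.24 in cortex, 0.0969 in kidney and 0 in liver and muscle. Both ligands and their receptor were thus highest in the same library.

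CCL2 and CCL7, the ligands of CCR2, had their highest level in BAT. Ccl2 (chr11:82028224-82038562) had 20.7 FPKM in BAT, 2.54 in SCAT, 2.01 in VAT, 1.73 in muscle, 1.17 in liver, 0.434 in kidney and 0.013 in cortex. Ccl7 had 17.8 FPKM in BAT, 2.32 in VAT, 2.16 in SCAT, 0.487 in muscle, 0.11 in kidney, 0.0384 in liver and 0 in cortex. BAT was 2.98 log2 units above the next tissue for Ccl2 and 2.89 for Ccl7, and the bounds of the Ccl2 locus also hold the coding gene Gm17268. Of 8 macrophage markers 0 were highest in BAT, which for so few markers is near the 15.1% of coding genes. Adgre1 had 7.41 FPKM in BAT, 10.1 in VAT, 9.59 in liver and 6.41 in SCAT. Mrc1 had 8.44 in BAT, 18.4 in liver, 16.01 in VAT and 14.6 in SCAT. For Cd68 and Itgam BAT lay above VAT, with 12.2 FPKM of Cd68 in BAT, 11.9 in VAT, 11.96 in SCAT and 15.4 in muscle, and 3.93 FPKM of Itgam in BAT, 3.21 in VAT and 4.05 in SCAT.

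The ligands with the highest levels of all were spread over several tissues. CCL6 and CCL9 are rodent chemokines of myeloid cells that bind CCR1. Ccl6 had 52.4 FPKM in VAT, 37.0 in BAT, 18.5 in SCAT, 12.4 in muscle, 7.04 in liver, 1.55 in kidney and 0.548 in cortex. Ccl9 had 33.6 FPKM in BAT, 32.4 in VAT, 17.0 in liver, 11.1 in SCAT, 8.51 in muscle, 0.596 in cortex and 0.584 in kidney. CCL8, a further monocyte chemokine, was highest in SCAT without meeting the rule. Ccl8 had 43.2 FPKM in SCAT, 15.2 in VAT, 4.65 in BAT, 1.49 in muscle, 0.969 in kidney, 0.0833 in cortex and 0 in liver.

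Neighbouring genes on chromosome 11 were in some cases highest in the same tissue and in others in different tissues. Ccl2, Ccl7, Ccl11, Ccl12, Ccl8 and Ccl1 lie in one block, and Ccl5, Ccl9, Ccl6, Ccl3 and Ccl4 in another. Within the first block BAT was highest for Ccl2, Ccl7 and Ccl12 (3.45 FPKM, with 2.34 in SCAT), VAT for Ccl11 and SCAT for Ccl8 and Ccl1 (0.575, and 0 elsewhere). Ccl3 and Ccl4, whose loci overlap, were low, reaching 0.809 and 1.84 FPKM in BAT.

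**Figure D2:**
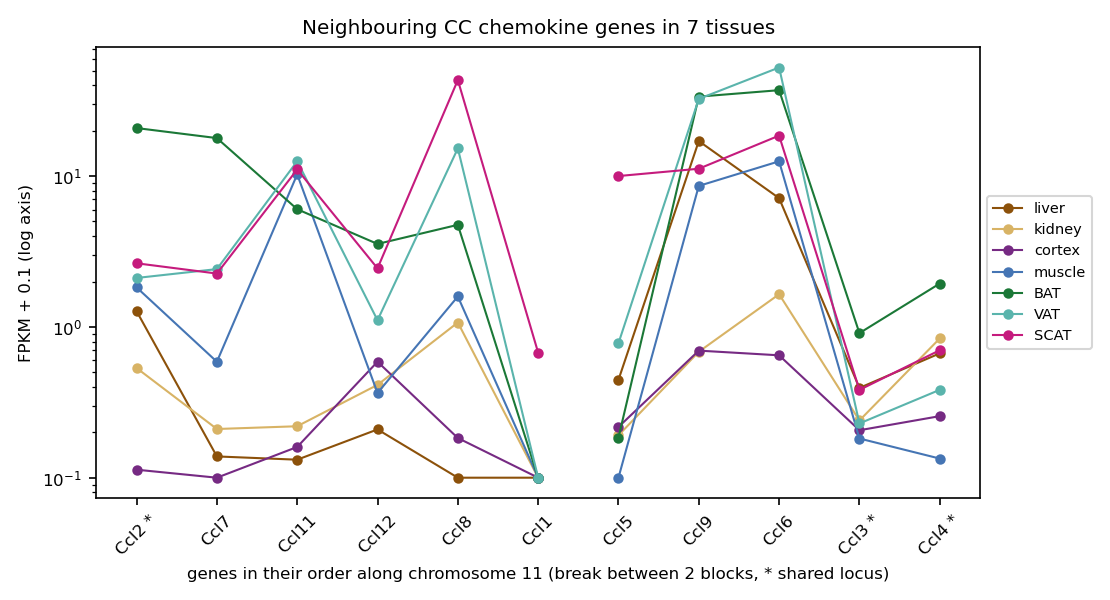
FPKM + 0.1 (log axis) of 11 CC chemokine genes in their order along chromosome 11, with 1 line per tissue library and asterisks for shared loci. BAT is highest at Ccl2 and Ccl7, SCAT at Ccl8 and Ccl5, and VAT at Ccl6.

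Both eotaxins above 0, which attract eosinophils, were highest in VAT. Ccl11 had 12.4 FPKM in VAT, 10.96 in SCAT, 10.2 in muscle, 5.93 in BAT, 0.119 in kidney, 0.0599 in cortex and 0.0316 in liver, so the 3 adipose tissues and muscle stood above the rest. Ccl24, for which liver lay above BAT, had 4.09 FPKM in VAT, 3.69 in muscle, 2.37 in SCAT, 1.84 in liver, 1.73 in BAT, 0.0955 in cortex and 0 in kidney. The neutrophil-attracting ligands of CXCR2 were low. Cxcl1, with its NF-kB match shown above, had 3.91 FPKM in liver, 1.16 in BAT, 0.532 in VAT, 0.499 in kidney, 0.28 in SCAT, 0.226 in muscle and 0.079 in cortex. Cxcl2, Cxcl3 and Cxcl5 were highest in BAT, at 0.935, 0.142 and 0.837 FPKM, and Cxcl15 reached 0.0219 in VAT.

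Interferon-induced ligands of CXCR3 were lowest in cortex. Cxcl9 had 7.99 FPKM in VAT, 7.74 in SCAT, 5.01 in BAT, 3.88 in liver, 1.04 in kidney, 0.661 in muscle and 0.0118 in cortex. The locus shared by Cxcl10 and Cxcl11, which also spans Art3 and Nup54, had 4.55 FPKM in liver, 2.55 in kidney, 2.49 in BAT, 2.16 in SCAT, 1.74 in VAT, 1.07 in muscle and 0.145 in cortex. VAT and SCAT thus differed by 2.03 log2 units in Cxcr3 and by 0.04 in Cxcl9.

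CX3CL1, the membrane-bound ligand of neurons that microglia read, was a gene of cortex and kidney. Cx3cl1 had 24.6 FPKM in cortex, 8.42 in kidney, 0.781 in VAT, 0.642 in SCAT, 0.276 in BAT, 0.163 in liver and 0.122 in muscle. The microglial marker P2ry12 had 33.1 FPKM in cortex and 0.314 to 8.05 elsewhere, while the locus of Cx3cr1, the receptor, overlapped Gorasp1 and other genes and ranged from 2.30 to 5.58 FPKM. Cxcl16, whose locus bounds also hold Med11 and Zmynd15, had 9.28 FPKM in kidney and 0.749 to 5.39 elsewhere. Xcl1, a product of T and natural killer cells, had a locus that overlaps Dpt, with 1.53 FPKM in SCAT, 0.374 in VAT and at most 0.17 elsewhere. Ccl20 reached 0.0432 FPKM and Cxcl17, in a locus with many other genes, 0.245, both in liver.

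Summed over the 26 ligands with a locus of their own, the level was 136 FPKM in VAT, 131 in SCAT, 121 in BAT, 47.7 in liver, 46.6 in muscle, 38.2 in kidney and 36.9 in cortex. In these unscaled levels the 3 fat depots thus lay close together for ligands, unlike for receptors. The median-of-ratios factors were 0.747 in VAT, 0.70 in SCAT and 1.22 in BAT. Division by them would raise the sums of VAT and SCAT and lower that of BAT.

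Set side by side, ligands and receptors matched in tissue for some pairs and not for others. In SCAT, Cxcl13 (12.3 FPKM) stood beside the Cxcr5 locus (6.81), and Ccl17 and Ccl22 (4.66 together) beside Ccr4 (1.25). For Cxcl12 the highest library was liver, where Cxcr4 was 0.397 FPKM. The sum of Ccl2, Ccl7 and Ccl12 was 41.9 FPKM in BAT and 7.04 in SCAT, whereas Ccr2 was 4.92 in BAT and 8.34 in SCAT. The ligands of CXCR2 summed to 0.419 FPKM in SCAT, where Cxcr2 was highest, and Ccl20, the ligand of CCR6, was at 0.0159 FPKM there.

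**Figure D3:**
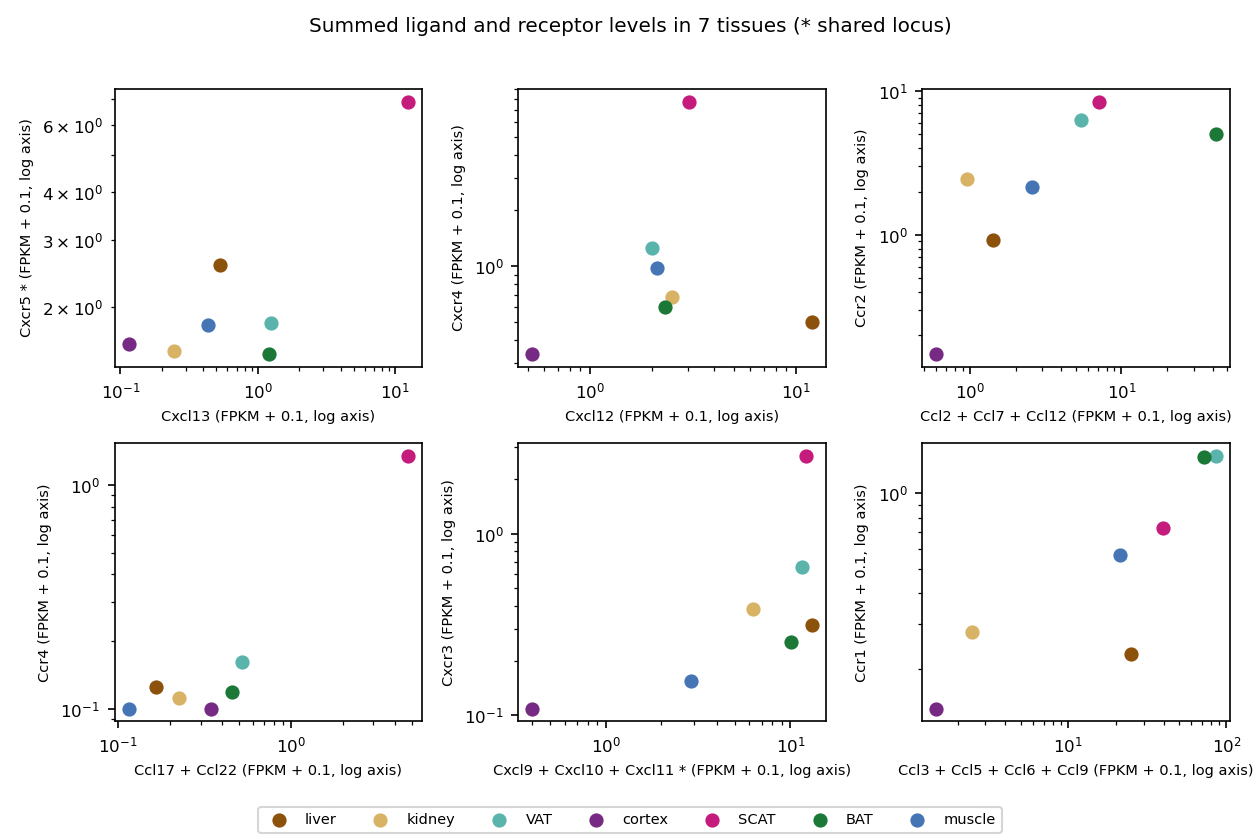
Summed FPKM of ligands (x axis) against FPKM of their receptor (y axis), both plus 0.1 on log axes, for 6 pairs, with 1 point per tissue library and asterisks for shared loci. SCAT is highest on both axes for Cxcl13 and for Ccl17 with Ccl22, while liver is highest for Cxcl12 and SCAT for Cxcr4.

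SCAT and VAT are both white fat, so their difference is not that between fat and other tissues. Among the 32 members at 1 FPKM or more in either, 10 were at least 4-fold higher in SCAT (31.2%, beside 3.84% of 11970 coding genes). These are the 10 members enriched in SCAT. Enrichment there already required 4-fold over VAT, so these 10 had to pass and the count is not a separate result. Ccl28 was the 1 member at least 4-fold lower, with a log2 difference of -3.80, beside 6.34% of coding genes. SCAT was above VAT for 23 members (71.9%, beside 41.5%). Of the 32, 30 reached 1 FPKM in SCAT and 22 in VAT, so more of them entered through SCAT. The median log2 difference of SCAT minus VAT was 0.51 for all 32, 2.03 for 11 receptors and 0.32 for 21 ligands, and -0.16 for coding genes. With annotated-strand loci alone, 5 members were 4-fold higher and 0 lower.

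**Figure D4:**
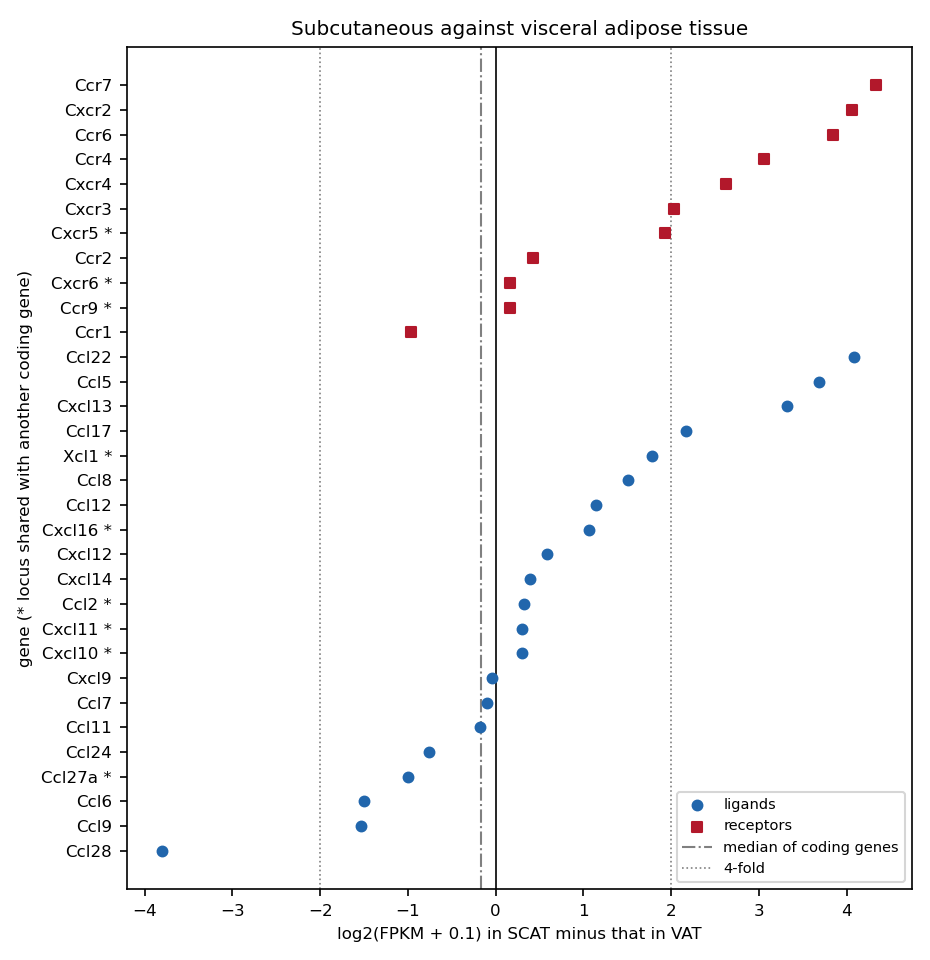
Difference of log2(FPKM + 0.1) between SCAT and VAT for the 32 members at 1 FPKM or more in either, with ligands as circles and receptors as squares. Dotted lines mark 4-fold, the broken line marks the median of coding genes at -0.16, and 10 members lie beyond 2 on the side of SCAT.

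Lymphocyte markers were also highest in SCAT. All 8 B cell markers and all 8 T cell markers were highest in SCAT, beside 8.38% of coding genes. Of them, 7 and 8 met the enrichment rule there, beside 1.94%. B cell markers summed to 211 FPKM in SCAT and to 3.43 to 7.47 in the other tissues, and T cell markers to 88.6 against 0.49 to 4.91. Ms4a1, which encodes CD20, had 50.6 FPKM in SCAT and 1.61 in VAT, and Cd3e had 3.396 and 0.227. Their log2 difference of SCAT minus VAT had a median of 4.99 for B cell and 3.85 for T cell markers.

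Some genes of lymph node vessels and follicles were also high in SCAT. Madcam1, of high endothelial venules, had 1.37 FPKM in SCAT, 0.0911 in VAT and 0 elsewhere. Cr2, of B cells and follicular dendritic cells, had 19.1 FPKM in a locus that overlaps Cd34, and Glycam1 had 25.4 FPKM in a locus that overlaps Nckap1l, which leukocytes express. Of the 7 markers of lymph node stroma and high endothelial venules with a locus, 4 met the rule in SCAT, beside 1.94% of coding genes. They summed to 84.1 FPKM in SCAT and 20.7 to 59.5 elsewhere. Ltbr was highest in liver (32.9, with 6.54 in SCAT) and Ltb in muscle (44.4, with 27.6 in SCAT), both in loci that overlap other genes. Chst4 had 0.499 FPKM in SCAT.

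Markers of other cell types differed in how far SCAT stood apart. Dendritic cell markers, a list that contains Ccl22 itself, summed to 29.9 FPKM in SCAT and 4.42 to 14.7 elsewhere, and 2 of 7 met the rule. Macrophage markers summed to 71.2 FPKM in SCAT, within the 15.3 to 99.95 of the other tissues. Of these 8 markers, 3 were highest in SCAT, and Timd4 met the rule there with 16.6 FPKM, beside 2.25 in liver. Natural killer cell markers summed to 25.3 FPKM in SCAT and 5.65 to 42.0 elsewhere, and Klrb1c alone had 40.4 in liver and 8.59 in SCAT. Of these 6 markers, 5 were highest in SCAT, 2 met the rule there, and their median log2 difference of SCAT minus VAT was 1.70. Plasma cell markers summed to 98.7 FPKM in SCAT and 7.80 to 57.3 elsewhere, but Jchain made up 89.0 of the sum, 2 of 5 reached 1 FPKM in SCAT, and their median log2 difference of SCAT minus VAT was -0.23. Neutrophil markers summed to 15.2 FPKM in SCAT (2.49 to 12.6 elsewhere) and eosinophil and mast cell markers to 66.3 (0.222 to 16.6). Most of the 66.3 came from the mast cell genes Cma1 (25.9), Mcpt4 (21.9) and Cpa3 (15.0). Among the other genes of that list, Siglecf had 0.22 FPKM in SCAT and 0.49 in VAT, and Epx had 0 in SCAT. Prg2 had 3.32 FPKM in SCAT and 0.42 in VAT. Endothelial markers summed to 57.7 FPKM, within 7.26 to 81.3. The part of lymphoid tissue, or of the pancreatic transcripts, in the levels of the members in SCAT was not tested. In such bulk libraries, fewer cells of a type and less RNA per cell cannot be told apart.

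**Figure D5:**
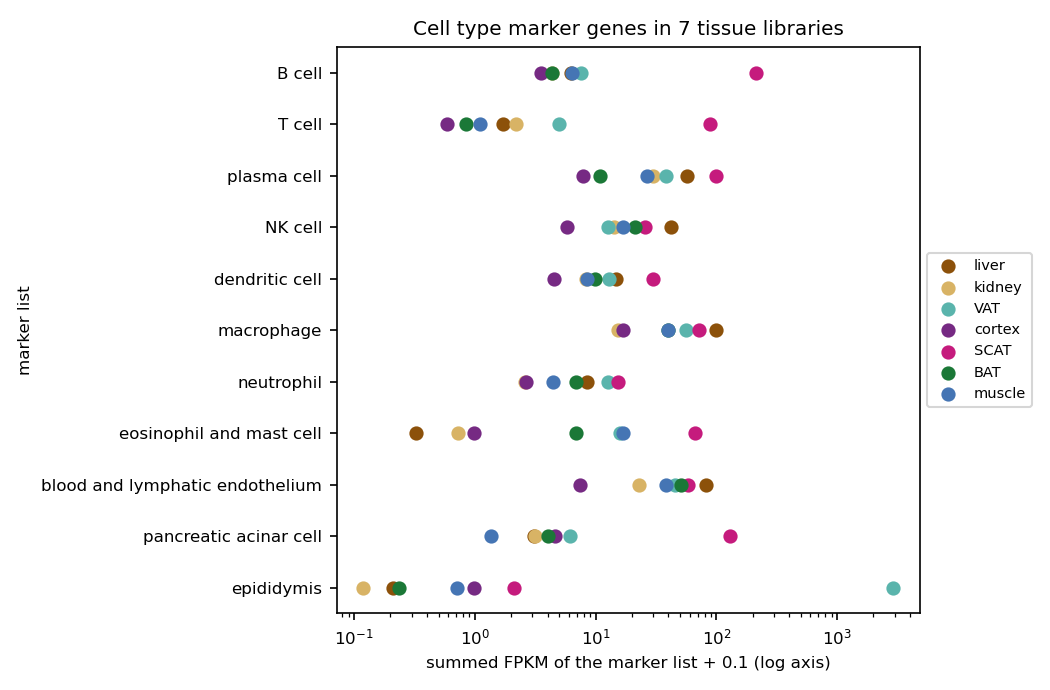
Summed FPKM plus 0.1 (log axis) of 11 marker lists in each tissue library. SCAT lies apart for the B cell (211 FPKM), T cell (88.6), eosinophil and mast cell, and pancreatic lists, and VAT for the epididymal list (2924). For the macrophage list SCAT (71.2) lies within the 15.3 to 99.95 of the other tissues.

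The other genes of the pathway gave a mixed picture. Among 11 intracellular signalling genes with a locus, 9 were highest in SCAT and 2, Rac2 and Dock2, met the rule there, beside 8.38% and 1.94% of coding genes. Rac2, a GTPase of leukocyte movement, had 13.8 FPKM in SCAT, 1.12 in VAT and 0.0901 to 0.926 in the other tissues. Dock2, which activates Rac in lymphocytes, had 28.7 FPKM in SCAT, 4.08 in VAT and 0.696 to 2.32 in the other tissues. Xcr1, the receptor of XCL1 on cross-presenting dendritic cells, had 2.73 FPKM in SCAT and at most 0.378 elsewhere.

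Of the 5 atypical receptors, which bind chemokines without G protein signalling, 0 met the rule in SCAT, beside 1.94% of coding genes. Ackr3, which takes up CXCL12, had 11.9 FPKM in BAT, 8.12 in muscle, 7.44 in kidney, 5.70 in VAT, 2.72 in SCAT, 0.881 in cortex and 0.214 in liver. Ackr1, Ackr2 and Ackr4 lay in loci shared with or overlapping other genes, such as Cyp8b1 for Ackr2 in liver (105 FPKM). Ccrl2 ranged from 0.118 FPKM in cortex to 3.91 in muscle. Among 8 genes of chemokine retention and processing, 4 were highest in liver (beside 15.5% of coding genes), where Sdc1 (25.2 FPKM) met the rule (beside 3.39%). In SCAT 0 of the 8 met it, beside 1.94%. Pf4, a platelet chemokine, had 24.1 FPKM in VAT, 17.3 in BAT, 15.1 in muscle and 14.5 in SCAT, and 0.575 to 1.67 elsewhere.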

How the data were processed

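Libraries of rRNA-depleted total RNA were prepared by the submitters with a directional kit. According to the submitters' processing notes, Bowtie2 2.2.9, STAR 2.6.0c, Cufflinks 2.2.1 and Cuffdiff were used, with the build GRCm38. The authors deposited the gene-level Cuffdiff table, whose FPKM values (94339 loci, 21 comparisons) are the same for a tissue in all 6 of its comparisons. Library type and scaling settings are not given in the sources used here. The authors' columns of log2 fold changes, test statistics, p-values and q-values were not used.

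The 151 loci with the status FAIL were left out, and zeros with the status LOWDATA were taken as missing, of which the members had none. For a name with several loci, the locus with the highest maximum FPKM was used. The order in which loci are listed gave their strand, and by it 75.3% of 61996 pairs of locus and name lay on the annotated strand. Coordinates were converted to count from 1. Biotypes came from GENCODE vM21, where 92.1% of names were found, and the background was every protein-coding name.

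Levels were compared as log2(FPKM + 0.1), which understates differences of low values. The rule was tested on simulated data. The members and all lists were chosen with earlier results of these data known. Named are the enriched members, the 3 highest in each tissue, every receptor, the members of ligand and receptor pairs at 1 FPKM or more, and members at 0. Pathway genes, markers and other members named beyond this were chosen after their values were seen. Protein sequences were not analysed here. Values of 1 receptor are not reported here. Alternatives covered the pseudocount, scaling, the minimum, the fold, locus choice, status handling and single libraries. Depth and its precision are unknown. Python 3.11.15, pandas 2.3.3, NumPy 2.4.6 and matplotlib 3.10.9 were used.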

Additional observations from a re-analysis of the deposited data

How the results depend on the processing

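The 14 enriched members kept their highest tissue under each of the 16 alternatives that gave them a value. Their log2 ratios ran from 0.70 to 5.17, and no ratio reversed. Changes of the pseudocount, minimum or fold, and leaving out another tissue or other members, could not change which tissue is highest. Only scaling and the handling of loci could have. Members enriched in SCAT have no value without that library, and Ccl2 and Ccr10 none without members of shared loci. Of 165 recomputed counts, 140 stayed within 1.5 times the reported count, and of 212 recomputed ratios, 185 stayed past the threshold of their setting. With a pseudocount of 1, 7 members were enriched, 4 of them in SCAT, and 4 were higher and 0 lower in SCAT than VAT. With a pseudocount of 0.01, 1 member was enriched in liver. A minimum of 5 FPKM left 20 members expressed, 6 enriched and 3 enriched in SCAT, with 3 higher and 0 lower in SCAT than VAT. A fold of 2 gave 23 enriched members, with 2 in liver, 1 in cortex and 2 in muscle, and 3 lower in SCAT. A fold of 8 gave 7, with 6 in SCAT and 0 in BAT. On the annotated strand 9 were enriched, 5 of them in SCAT, and 5 were higher and 0 lower in SCAT than VAT. Without the SCAT library 28 members reached 1 FPKM, and 5 were enriched, 1 of them in liver. Without members of shared loci, an alternative chosen after seeing the data, 1 was enriched in BAT and 10 in SCAT. Without VAT, also chosen later, 12 were enriched in SCAT. The SCAT share of coding genes ranged from 0.897% to 3.58% over these alternatives. No paired analysis was possible because each tissue has 1 library. Fragment counts are needed to say how precise the low FPKM values are.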
